A study of Homo sapiens with 3 samples.

Results

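The RAB small GTPases are described here across 3 RNA libraries that were pulled down from lysate of J82 cells, a human bladder cancer cell line. The libraries hold RNA bound by wild-type ZFP36L1 fused to glutathione S-transferase (GST), RNA bound by a GST fusion of the ZFP36L1 Ala mutant, and RNA bound by GST alone. Each of the 3 proteins has 1 library and all came from the same untreated line, so a difference between libraries has no replicate check and no p-value is given. The labels do not say which residues were replaced in the Ala mutant. The wild-type and Ala libraries share a run code in the names of the deposited tables and the GST library carries another, so GST and its run cannot be told apart. Members were the protein-coding genes of GENCODE release 29 whose symbol is RAB, a number and at most 1 letter. Of 63 such genes, RAB7B, RAB6D and RAB44 were not analysed here, which left 60 members with 349 transcripts among 52989 joined genes. A mean of at least 10 estimated counts over the 3 libraries was reached by 47 members, against 14081 genes in all, and the values below are for those 47 unless stated.

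RAB proteins are molecular switches that mark membranes of the secretory and endocytic routes. In the GTP-bound form they recruit effectors that tether, move or fuse vesicles, exchange factors (GEFs) load the GTP, and GTPase-activating proteins (GAPs) end the signal. Prenylation by a geranylgeranyl transferase with an escort protein anchors them to the membrane, and a dissociation inhibitor (GDI) takes them off it. Many came from gene duplications and exist as near copies that act on the same compartment. ZFP36L1 is a zinc finger protein of the ZFP36 family, which binds AU-rich elements in 3′ untranslated regions (UTRs) and brings the bound mRNA to the deadenylation machinery.

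The AU-rich heptamer UAUUUAU, the sequence the ZFP36 family is known to prefer, was searched on the sense strand of the 3′ UTR of the coding transcript of each member that had the highest mean TPM. It was present in 23 of 47 members (48.9%), against 30.8% of all genes with such a UTR. The sites below are written 5′ to 3′ as RNA with the heptamer in capitals, in GRCh38 coordinates with exact matches to the GENCODE transcript, and all lie in the 3′ UTR. The first 6 belong to members among the 8 highest in the wild-type library. The next 4 are from close relatives that lay on opposite sides as genes. RAB5A and RAB4A were higher in the wild-type than in the GST library, and RAB5B and RAB4B were lower. The RAB5B site is on RAB5B-201, with 0 counts in the wild-type, 30 in the Ala and 59 in the GST library. RAB5B-206, with 0 heptamers, had 49, 95 and 117. The RAB4B site is on RAB4B-201, with 0, 12 and 37 counts in the same order. RAB4B-204, annotated as a retained intron and not searched, had 5, 37 and 0. RAB40C, the last, was lower as a gene. Its site is on RAB40C-204, with 18 counts in the wild-type, 55 in the Ala and 0 in the GST library. Most RAB40C counts were on RAB40C-206, annotated as a retained intron, which was not searched.
RAB14 (chr9:121178763-121178791, minus strand): gugcuuaguacUAUUUAUgcuuaaauaga
RAB2B (chr14:21459794-21459822, minus strand): ugaaugugacaUAUUUAUuccuaguucca
RAB21 (chr12:71787817-71787845, plus strand): ugugaaguuagUAUUUAUguggggguggg
RAB38 (chr11:88113242-88113263, minus strand): ugcuguuucccUAUUUAUgaaa
RAB12 (chr18:8638790-8638818, plus strand): ucauggaagguUAUUUAUuaauguuacau
RAB6A (chr11:73677689-73677717, minus strand): agugucuucauUAUUUAUauuuuacaaaa
RAB5A (chr3:19984233-19984261, plus strand): gauucuaaaguUAUUUAUgaugcuuagcc
RAB5B (chr12:55996388-55996416, plus strand): gaaauguauuaUAUUUAUgccccuuacuu
RAB4A (chr1:229304227-229304255, plus strand): acaauugguuaUAUUUAUgaccugauauu
RAB4B (chr19:40796869-40796897, plus strand): cuaguaccuguUAUUUAUuaccuggaggc
RAB40C (chr16:627907-627935, plus strand): uuggccuuucuUAUUUAUauagagaacac
A match describes these letters and is not evidence of binding. The GENCODE models of RAB21 (15546 bases) and RAB5B (5340 bases) are longer than the deposited transcripts of the same identifiers (6180 and 3362 bases), so some of their sites may lie outside the sequence that was counted.

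RAB mRNAs took a larger share of the wild-type library. Their summed estimated counts were 91759 in the wild-type, 42523 in the Ala and 49583 in the GST library, which is 0.481%, 0.232% and 0.270% of the joined counts. In TPM, a transcript abundance that is corrected for length, the RAB sum was 1588 in the wild-type, 1074 in the Ala and 1193 in the GST library. Below, higher and lower mean that the TMM-scaled ratio of a gene was at least 2-fold and the exact Clopper-Pearson 95% interval of the split of its counts excluded 1. These intervals cover counting error only.

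For wild type over GST, 18 of the 47 members were higher (38.3%, against 25.5% of all genes tested) and 14 were lower (29.8%, against 34.2%), while 15 passed in neither direction. In either direction 59.7% of all genes passed. The members were therefore more often on the higher side than all genes were, and their median log2 ratio was 0.50, against -0.04 for all genes. The range was wide, with log2 ratios between -4.37 and 2.52. For wild type over Ala, 21 members were higher (44.7%, against 30.1% of all genes) and 15 were lower (31.9%, against 36%), where 66.1% of all genes passed in 1 direction or the other, with a median of 0.78 against -0.04. Among protein-coding genes alone the background shares were 26.8% higher and 34.0% lower for wild type over GST. Both comparisons use the same wild-type library and are not independent of each other.

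**Figure D1:**
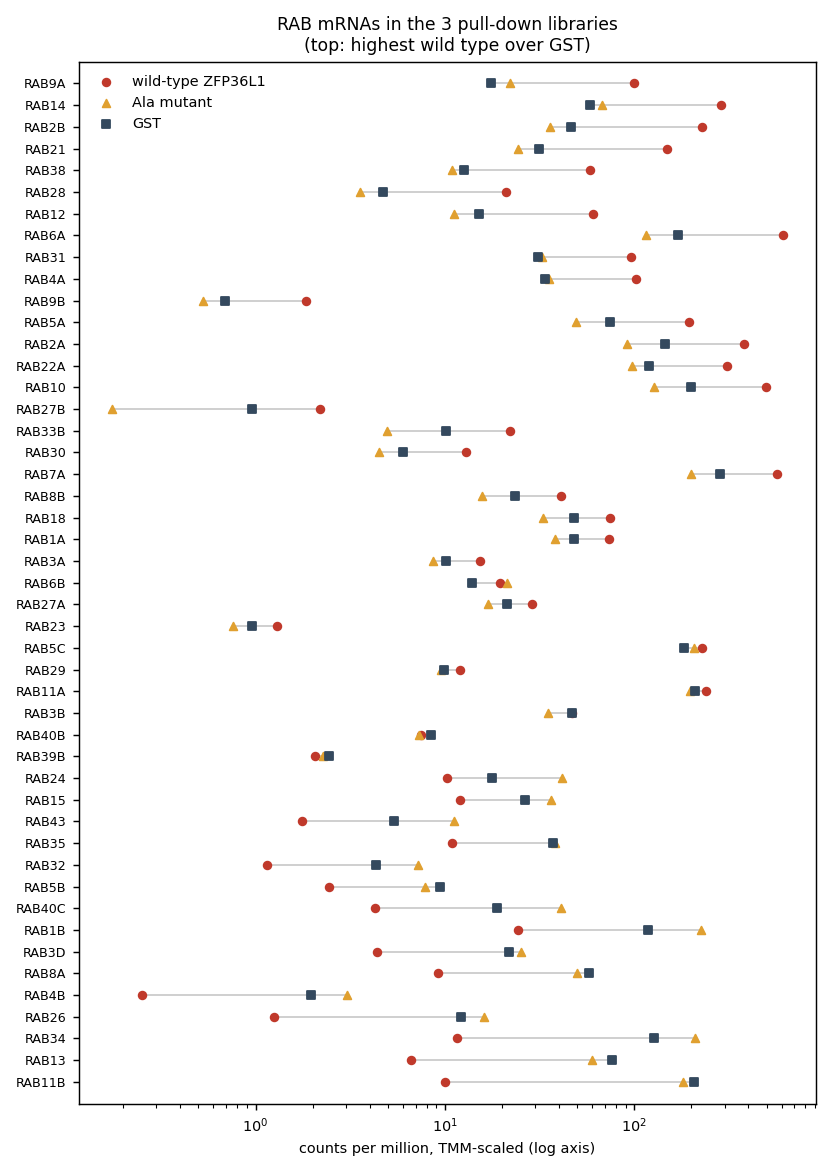
TMM-scaled CPM (counts scaled to library size) on a log axis for the 47 measured RAB genes in the wild-type ZFP36L1 (circles), Ala mutant (triangles) and GST (squares) libraries, 1 library each, ordered by wild type over GST. From RAB9A to RAB8B the wild-type point lies right of the other 2, and from RAB24 to RAB11B it lies left of them, while the Ala and GST points stay close together for most genes.

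Of the 8 measured early endosome members, 5 were higher and 2 were lower in the wild-type than in the GST library. Counts in this and the following groups are to be read against the 25.5% of all genes that were higher and the 34.2% that were lower. Each group has at most 12 measured members, and differences between groups were not tested. RAB21, which works in integrin traffic through early endosomes, had 2963 counts in the wild-type, 417 in the Ala and 590 in the GST library, a log2 ratio of wild type over GST of 2.25 (95% interval 2.12 to 2.38). RAB5A, the best known regulator of early endosome fusion, had 3879 counts in the wild-type, 846 in the Ala and 1398 in the GST library (log2 ratio 1.39). RAB4A, which acts in fast recycling to the plasma membrane, had 2051, 610 and 637 counts in the wild-type, Ala and GST libraries (log2 ratio 1.6). In all of these the wild-type library stood apart while Ala and GST lay within 2-fold of each other. The same held for RAB31, with 1914 counts in the wild-type, 555 in the Ala and 586 in the GST library, and for its relative RAB22A, with 6143, 1663 and 2242 in the same order. The near copies RAB5B and RAB4B went the other way. RAB5B had 49 counts in the wild-type, 134 in the Ala and 177 in the GST library (log2 ratio -1.92, 95% interval -2.42 to -1.47). RAB4B had only 5, 52 and 37 counts in the wild-type, Ala and GST libraries (log2 ratio -2.85, 95% interval -4.67 to -1.62). Every 31-base stretch of its transcript is also in another gene, and 88.6% are in the MIA-RAB4B readthrough gene, which had 0 counts. RAB5C, the RAB5 gene with the highest TPM in each library, was nearly level, with 4545 counts in the wild-type, 3548 in the Ala and 3451 in the GST library (log2 ratio 0.31).

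The 5 recycling members split 1 higher to 3 lower, and this group held the lowest value of all. RAB11B had 199 counts in the wild-type library, 3086 in the Ala and 3905 in the GST library. It was 20.7-fold lower in the wild-type than in the GST library (log2 ratio -4.37, 95% interval -4.59 to -4.17). Its partner on recycling endosomes, RAB11A, hardly moved and had the highest TPM of all RAB genes in the GST library (246). Of that TPM, 135 was on RAB11A-208, a processed transcript of 347 bases. RAB11A had 4797 counts in the wild-type, 3378 in the Ala and 3965 in the GST library (log2 ratio 0.19). RAB14, which runs between the Golgi and endosomes, was the higher member, at 5764 counts in the wild-type, 1153 in the Ala and 1096 in the GST library (log2 ratio 2.31, 95% interval 2.22 to 2.41). RAB35, a recycling RAB at the plasma membrane, had 218, 655 and 702 counts in the wild-type, Ala and GST libraries (log2 ratio -1.77). RAB15 was lower as well, with 241, 625 and 499 counts in the same order (log2 ratio -1.13).

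Among the 7 late endosome and lysosome members, 3 were higher and 1 was lower. RAB9A (chrX:13689125-13710506, plus strand), which returns cargo from late endosomes to the Golgi, had the highest ratio of all members: 1995 counts in the wild-type, 376 in the Ala and 329 in the GST library, a 5.72-fold difference over GST (log2 ratio 2.52, 95% interval 2.35 to 2.69). Its copy RAB9B was scarce but pointed the same way, with 37 counts in the wild-type, 9 in the Ala and 13 in the GST library (log2 ratio 1.39, 95% interval 0.48 to 2.46). RAB38, which serves melanosomes and other lysosome-related organelles, had 1172, 186 and 237 counts in the wild-type, Ala and GST libraries (log2 ratio 2.22, 95% interval 2.02 to 2.43). RAB32, which shares that role, had 23, 123 and 82 counts in the same order (log2 ratio -1.89). These 2 related genes thus lay on opposite sides. RAB29 of the same family was uncalled at 239, 163 and 186 counts in the wild-type, Ala and GST libraries. RAB7A, the main RAB of late endosomes, had 11371 counts in the wild-type, 3427 in the Ala and 5373 in the GST library. Its log2 ratio of 0.999 over GST lay just under the 2-fold threshold and passed it at 1.04, 1.03 and 1.11 under the other scalings of the libraries tried. RAB7A was called higher over Ala (log2 ratio 1.51). RAB24, which has been linked to autophagy, had 205 counts in the wild-type, 709 in the Ala and 336 in the GST library. It was called lower over Ala (log2 ratio -2.01) and uncalled over GST (-0.79). RAB24 shares 74.5% of its 31-base stretches with other genes, the most with its neighbour MXD3, and the summed counts of both had a log2 ratio over GST of -1.41 (95% interval -1.58 to -1.24), which is past the threshold.

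Of 12 measured members of the route from the endoplasmic reticulum through the Golgi, 5 were higher and 3 were lower. RAB6A, which drives retrograde traffic at the Golgi, had 12159 counts in the wild-type, 1977 in the Ala and 3191 in the GST library (log2 ratio 1.85, 95% interval 1.79 to 1.90). Its copy RAB6B was uncalled, with 391, 363 and 261 counts in the wild-type, Ala and GST libraries (log2 ratio 0.50). Both RAB2 genes, which act on Golgi membranes, were higher in the wild-type library. RAB2B had 4534 counts in the wild-type, 611 in the Ala and 873 in the GST library (log2 ratio 2.29, 95% interval 2.19 to 2.40). RAB2A had 7535, 1574 and 2735 counts in the same order (log2 ratio 1.38). The 2 RAB1 genes, which act in transport from the endoplasmic reticulum to the Golgi, differed. RAB1A had 1464 counts in the wild-type, 651 in the Ala and 901 in the GST library (log2 ratio 0.62, uncalled). RAB1B had 485, 3872 and 2241 counts in the same order (log2 ratio -2.29, 95% interval -2.43 to -2.15). RAB1B shares 42.9% of its 31-base stretches with other genes, the most (26.9%) with an antisense gene, AP001107.2. Whether counting used strand is not stated. The summed counts of RAB1B and AP001107.2 gave a log2 ratio of -2.18. RAB34, known for its part in building cilia, was 10.9-fold lower, with 231 counts in the wild-type, 3584 in the Ala and 2386 in the GST library (log2 ratio -3.45, 95% interval -3.65 to -3.26). Most of the RAB34 counts were assigned to RAB34-217, a transcript annotated as a retained intron, with 175 counts in the wild-type, 2984 in the Ala and 1900 in the GST library. The Golgi members RAB33B and RAB30 were higher (log2 ratios 1.12 and 1.10) and RAB43 was lower (-1.61). RAB18, which acts on lipid droplets and the endoplasmic reticulum, had 1483 counts in the wild-type, 561 in the Ala and 909 in the GST library, and was called higher over Ala (log2 ratio 1.18) but not over GST (0.62). RAB39B, a neuronal RAB, was near level at 41, 39 and 46 counts in the wild-type, Ala and GST libraries.

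Of the 11 measured members of the exocytic group, which carry vesicles to the cell surface, 3 were higher and 4 were lower. RAB10, which acts in delivery of glucose transporters and basolateral cargo, had 9869 counts in the wild-type, 2182 in the Ala and 3752 in the GST library (log2 ratio 1.31, 95% interval 1.26 to 1.37). RAB13, its relative at epithelial tight junctions, had 133, 1029 and 1436 counts in the wild-type, Ala and GST libraries. It was 11.4-fold lower over GST (log2 ratio -3.51, 95% interval -3.78 to -3.26). RAB12 was among the 8 highest members, with 1205 counts in the wild-type, 190 in the Ala and 284 in the GST library (log2 ratio 2.0, 95% interval 1.82 to 2.19). RAB8A and RAB8B both work in transport from the Golgi to the surface and in ciliogenesis. RAB8A had 184 counts in the wild-type, 857 in the Ala and 1090 in the GST library (log2 ratio -2.65, 95% interval -2.88 to -2.42). It shares 35.3% of its 31-base stretches with other genes, the most (34.3%) with the antisense gene AC008894.2. The summed log2 ratio of RAB8A and AC008894.2 was -2.51. RAB8B had 821, 270 and 443 counts in the wild-type, Ala and GST libraries (log2 ratio 0.81 over GST, uncalled, and 1.38 over Ala, called).

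The secretory granule members completed this group. RAB3A, a synaptic vesicle protein in neurons, had 305 counts in the wild-type, 148 in the Ala and 190 in the GST library (log2 ratio 0.60). RAB3B had 936, 600 and 880 counts in the same order (log2 ratio 0.01). RAB3D, found on granules of secretory epithelia, had 87, 434 and 412 counts in the wild-type, Ala and GST libraries (log2 ratio -2.32, 95% interval -2.68 to -1.99). Of the measured RAB3 genes, RAB3D alone passed the threshold. RAB26, another granule RAB, had 25 counts in the wild-type, 276 in the Ala and 230 in the GST library (log2 ratio -3.26, 95% interval -3.94 to -2.69). RAB27A, which docks secretory lysosomes, had 579, 289 and 400 counts in the wild-type, Ala and GST libraries (log2 ratio 0.45). RAB27B had 44, 3 and 18 counts in the same order (log2 ratio 1.18, 95% interval 0.39 to 2.09). Of the remaining members, RAB28 was higher and RAB40C was lower. RAB28 had 418 counts in the wild-type, 61 in the Ala and 89 in the GST library (log2 ratio 2.14, 95% interval 1.82 to 2.50). RAB40C, whose family recruits a cullin ubiquitin ligase, had 85, 700 and 356 counts in the wild-type, Ala and GST libraries (log2 ratio -2.14, 95% interval -2.51 to -1.80). RAB40B was level, with 150, 125 and 160 counts in the same order.

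Close paralogs were compared within families. A family was taken as 2-fold apart when the highest and lowest measured members differed by at least 1 on the log2 scale, with a Wald 95% interval of the log odds ratio that excluded 0. Library scaling cancels in this difference. Of 15 families with at least 2 measured members, 11 were apart for wild type over GST, and the median difference over the 15 was 2.91. For wild type over Ala 11 families were apart as well (median 3.35), while for Ala over GST only 4 were (median 0.70). By pairs, 16 of 21 differed by at least 1 in log2 ratio of wild type over GST (76.2%), against 69.2% of all pairs of tested genes, and 16 (76.2%, against 73.3%) for wild type over Ala. For Ala over GST it was 4 (19.05%, against 30.7%). Paralogs were thus about as often 2-fold apart as any 2 genes in the wild-type comparisons. In 4 families for wild type over GST, and 5 for wild type over Ala, 1 member was called higher and another lower. The 4 were RAB4, RAB5, the pair RAB10 and RAB13, and the family of RAB29, RAB32 and RAB38, and RAB8 joined them over Ala.

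The widest gap for wild type over GST was between RAB10 and RAB13, at 28.3-fold (log2 difference 4.82, 95% interval 4.56 to 5.08), followed by RAB11A over RAB11B at 23.7-fold (4.57, 4.35 to 4.78). These 2 pairs have coding sequences that are 64.3% and 72.5% identical. RAB10 lies at chr2:26034107-26137454 and RAB13 at chr1:153981617-153986358, both as GRCh38 gene bounds. RAB11A lies at chr15:65726054-65891991 and RAB11B at chr19:8389981-8404434. RAB4A exceeded RAB4B by 4.46 (3.16 to 5.75), a difference that rests on the 5 counts of RAB4B in the wild-type library. RAB38 exceeded RAB32 by 4.12 (3.42 to 4.81), RAB8B exceeded RAB8A by 3.45 (3.17 to 3.73), and RAB5A exceeded RAB5B by 3.31 (2.85 to 3.78). RAB3A exceeded RAB3D by 2.92 (2.50 to 3.34) and RAB1A exceeded RAB1B by 2.91 (2.72 to 3.09). The gaps of RAB40B over RAB40C (1.97), RAB6A over RAB6B (1.35) and RAB9A over RAB9B (1.12) were smaller and still past the threshold. With the fit on GC content and length described below removed, several of these gaps shrank by over 1.5 times: RAB10 over RAB13 to 2.98, RAB11A over RAB11B to 2.19, RAB4A over RAB4B to 1.09, RAB8B over RAB8A to 1.25 and RAB40B over RAB40C to 0.78. RAB1A and RAB1B then differed by only -0.099, and RAB6A fell below RAB6B (-1.03). RAB38 over RAB32 (2.92), RAB5A over RAB5B (2.61), RAB3A over RAB3D (4.63) and RAB9A over RAB9B (1.38) were kept past 1.

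The 4 families under the threshold were RAB2A with RAB2B (0.91), RAB2A with RAB14 (0.93), RAB22A with RAB31 (0.25) and RAB27A with RAB27B (0.73). The interval of the last, -0.07 to 1.54, includes 0. With the fit removed, RAB2B over RAB2A widened to 1.37. Every member of the first 3 of these was called higher in the wild-type library. For Ala over GST the families that were apart were RAB1 (1.26), RAB6 (1.17), RAB27 (1.93) and RAB40 (1.33). RAB27 rests on 3 counts of RAB27B in the Ala library. RAB1B lay above RAB1A here.

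**Figure D2:**
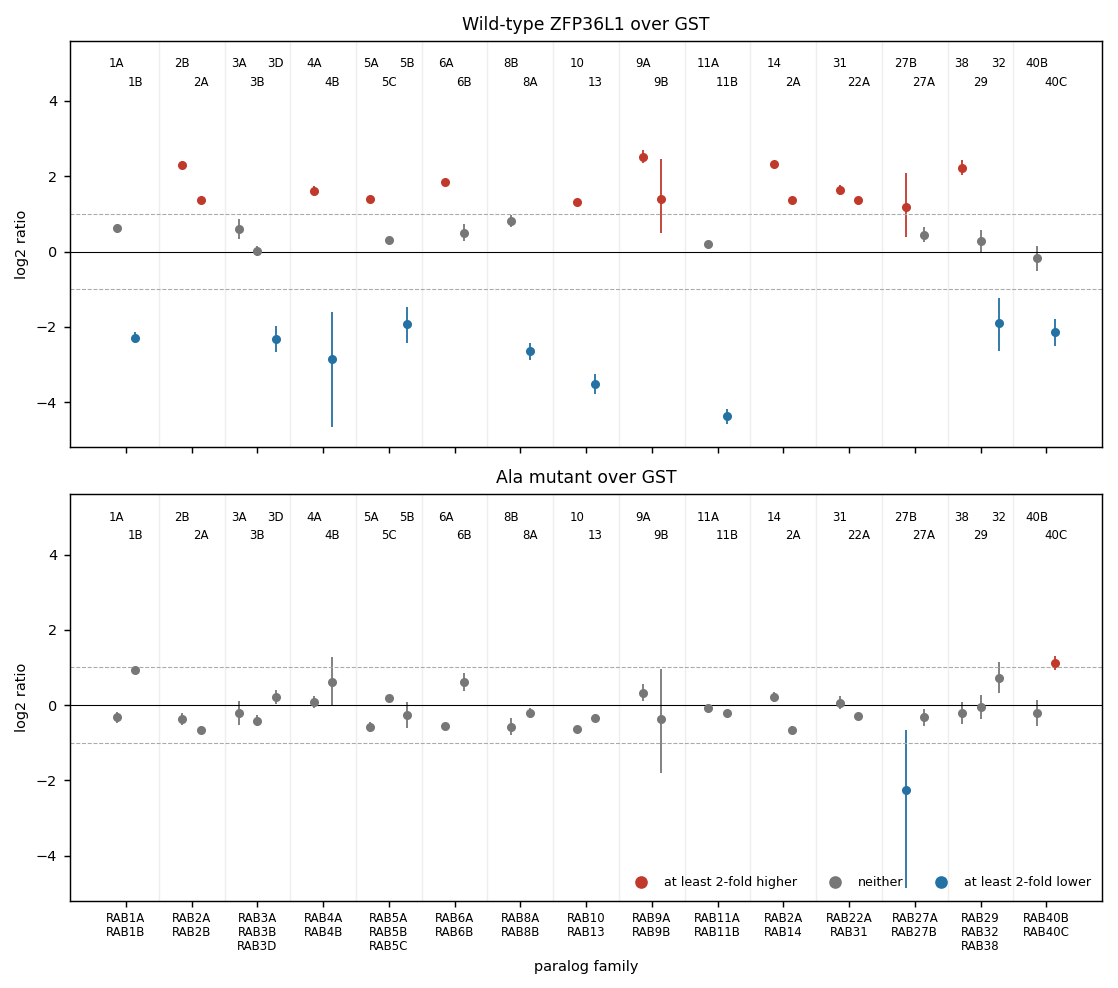
Log2 ratios of the measured members of the 15 RAB families, for wild type over GST and for Ala over GST. Points are members with their counting intervals, coloured by call. Gaps within families are wide for wild type over GST (up to 4.82) and narrower for Ala over GST (up to 1.93). Wild type over Ala, with gaps of up to 5.12, is not drawn.

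The 47 members were compared by sequence features of their main transcript, and for the 3′ UTR of their main coding transcript. Members higher in the wild-type than in the GST library had a median transcript GC content of 40.6%, uncalled members 44.8% and lower members 56.4%. The highest GC among higher members was 46.5% and the lowest among lower members was 48.3%, so these sets of 18 and 14 genes did not overlap. Over all genes the ranges overlapped, at 26.8% to 67.2% for higher and 32.6% to 74.6% for lower genes. Those ranges span 3586 and 4820 genes, and a range widens with the number of genes, so the ranges are not comparable. The medians over all genes, 42.2% for higher and 56.2% for lower, were close to those of the members. Median 3′ UTR length was 2645 bases in higher, 1638 in uncalled and 1452 in lower members. Over all genes it was 1530, 1205 and 463.5 bases in the same order. Across the 47 members the log2 ratio of wild type over GST and GC content had a Spearman rho of -0.67, against -0.59 over all genes. For wild type over Ala it was -0.73 (-0.67 over all genes) and for Ala over GST 0.68 (0.54 over all genes). These are correlations across genes within the same libraries, and genes are not independent replicates. When a cubic fit on GC content and length over all genes was removed, 12 members were past the threshold as higher and 7 as lower for wild type over GST. Of the 18 called higher before, 7 were still called (RAB2B, RAB9A, RAB12, RAB14, RAB21, RAB28 and RAB38), and of the 14 called lower, 7 were (RAB3D, RAB5B, RAB8A, RAB11B, RAB13, RAB26 and RAB34). RAB38 had a log2 ratio of 2.30 and RAB11B of -2.00 after the fit was removed. RAB3A (2.87), RAB6B (2.02), RAB5C (1.81), RAB24 (1.33) and RAB7A (1.01) were then past the threshold as higher, although they had not been before. The part of sequence composition in the differences was not tested further.

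**Figure D3:**
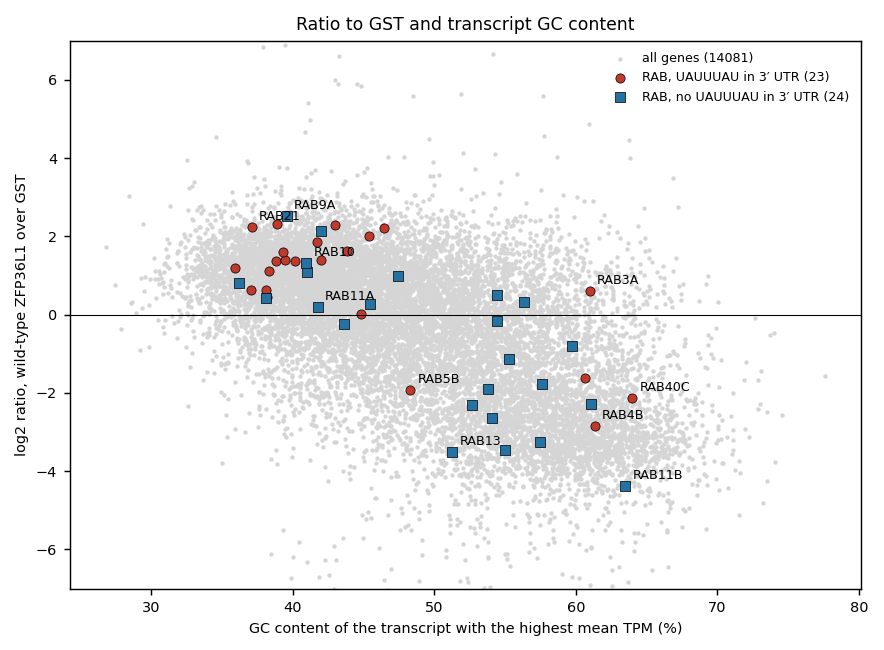
Log2 ratio of wild type over GST against the GC content of the main transcript for the 47 RAB genes and all genes tested. RAB genes that hold UAUUUAU are marked apart. Points beyond 7 on the log2 axis are not shown. RAB genes called higher in the wild-type than in the GST library lie at or below 46.5% GC and those called lower at or above 48.3%.

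Members that hold UAUUUAU had a median log2 ratio of wild type over GST of 1.37, against -0.21 for the 24 without it, a difference of 1.58. The difference over all genes was 1.63, close to that of the members. Of the 23 with the heptamer 14 were higher (60.9%, against 47.1% of all genes with it) and 4 were lower (against 311 of all 3599). Of the 24 without it 4 were higher (16.7%, against 17.8%) and 10 were lower (against 3641 of all 8095). The shorter UAUUUA, which is contained in every UAUUUAU, was present in 35 members (74.5%, against 49.3% of all genes). The 12 members without it had a median of -2.11, with 0 higher and 8 lower, against 1.10 for the 35 with it, of which 18 were higher and 6 lower. That difference was 3.21, against 2.26 over all genes, where 11.8% of genes without UAUUUA and 42.3% with it were higher. Over all genes, 3315 of 5929 without UAUUUA and 637 of 5765 with it were lower. RAB9A, RAB10, RAB28 and RAB30 were higher without a heptamer in the searched UTR, and RAB4B, RAB5B, RAB40C and RAB43 were lower with one. For RAB40C and RAB5B the searched transcripts, RAB40C-204 and RAB5B-201, were not the ones with most counts. In the wild-type library RAB4B was counted only on RAB4B-204, a retained intron that was not searched. RAB30-212 has 1 heptamer and held 58.4% of the RAB30 counts in the wild-type library, but it was not the transcript searched. RAB6B-207, RAB11A-201 and RAB40B-206 also hold the heptamer but were not the transcripts searched. In any annotated 3′ UTR, 27 members held it, so the counts here depend on the transcript taken. RAB3A, with a 3′ UTR of 60.5% GC and 4 heptamers, of which some overlap, passed in neither direction. Over pairs at least 2-fold apart, the member with the higher ratio had the lower GC content in 12 of 16, the longer 3′ UTR in 9, more heptamers in 7, the same number in 6 and fewer in 3. In the 5 pairs under 2-fold apart that member had the lower GC content in 1, the longer 3′ UTR in 2, more heptamers in 2 and fewer in 3. Some pairs share a member. RAB10 and RAB13, the widest pair, both held 0 heptamers, and their transcripts have 41.0% and 51.3% GC.

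Transcripts of 1 gene also differed. Of 76 RAB transcripts with a mean of at least 10 estimated counts, 23 were higher (30.3%, against 23.3% of all transcripts tested) and 30 were lower (39.5%, against 42.9%) in the wild-type than in the GST library. In 6 of 21 genes with at least 2 such transcripts (28.6%, against 21.3% of all such genes), some were higher and others lower. The assignment of reads to overlapping transcripts is an estimate of kallisto, and its error is not in the intervals. In 6 of 41 genes with a mean of at least 100 counts a transcript's share of the gene differed by at least 20 percentage points between wild type and GST (14.6%, against 23.8% of all such genes).

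RAB1A, uncalled as a gene, was the clearest case. RAB1A-204 had 1334 counts in the wild-type, 271 in the Ala and 365 in the GST library, which is 91.1%, 41.6% and 40.5% of the gene. RAB1A-203 had 130.3, 379 and 536 counts in the same order. Their log2 ratios of wild type over GST were 1.79 and -2.12, although their 3′ UTRs are the same length, 1638 bases, with 1 heptamer each. RAB6B-207, with a 3′ UTR of 4463 bases, had 311 counts in the wild-type, 58 in the Ala and 0 in the GST library. Against a floor of 3 counts it was at least 97.9-fold higher. RAB6B-205, with a 3′ UTR of only 135 bases, had 28, 198 and 131 counts in the wild-type, Ala and GST libraries (log2 ratio -2.29), and RAB6B-201, with 4549 bases, had 52.3, 104.5 and 130.1 (-1.40). RAB6B thus held both directions, and UTR length did not order them.

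RAB40B split by 3′ UTR. RAB40B-206, with 2890 bases and 4 heptamers, had 122.5 counts in the wild-type, 32 in the Ala and 62 in the GST library (log2 ratio 0.90). RAB40B-201, with 796 bases and 0 heptamers, had 27, 78 and 98 in the same order (log2 ratio -1.92). Counts of RAB28 in the wild-type library were all on RAB28-205, annotated as a target of nonsense-mediated decay, with 418 counts in the wild-type, 23 in the Ala and 59 in the GST library. The protein-coding RAB28-203 had 0, 22 and 28 counts in the wild-type, Ala and GST libraries, at least 9.99-fold lower over GST. The call of RAB28 as higher therefore belongs to a transcript that is not annotated as coding. RAB5B-201 had 0, 30 and 59 counts in the same order, at least 21-fold lower, and RAB5B-206, another decay target, had 49, 95 and 117 (log2 ratio -1.33). RAB40C was mostly counted on the retained intron RAB40C-206, with 67 counts in the wild-type, 645 in the Ala and 356 in the GST library, and its protein-coding RAB40C-204 had 18, 55 and 0.

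**Figure D4:**
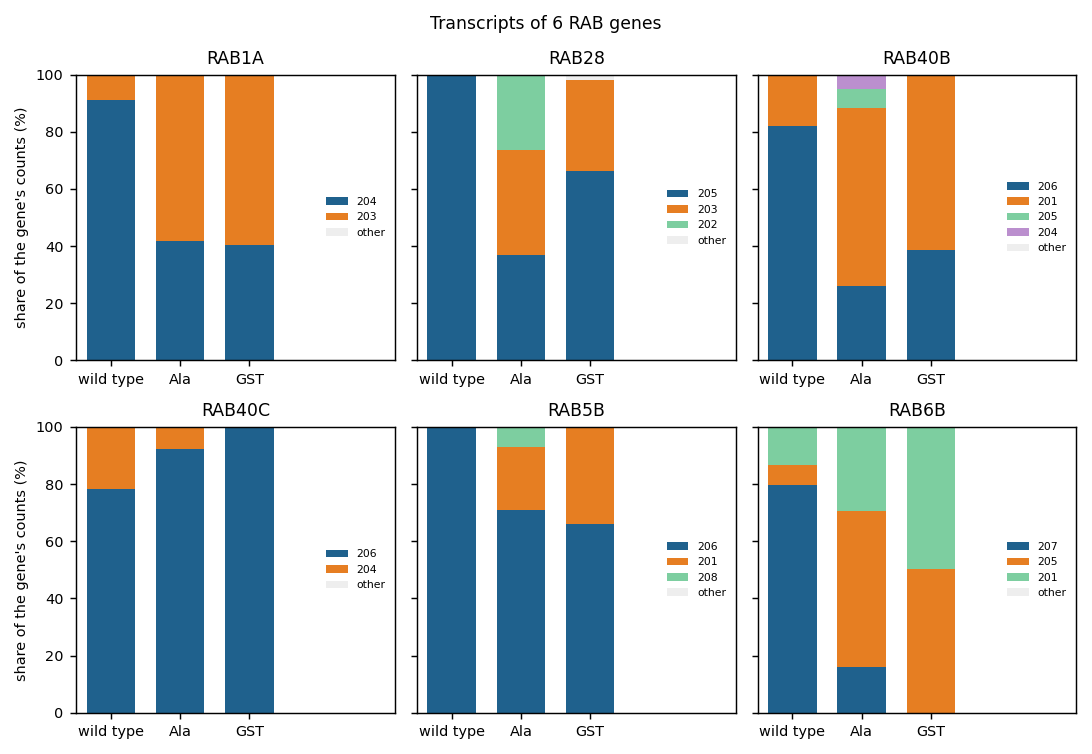
Share of each gene's estimated counts on its transcripts, in percent, in the wild-type, Ala and GST libraries for the 6 RAB genes with a shift of at least 20 percentage points between wild type and GST. Legend numbers are transcript suffixes and pale grey is all other transcripts. RAB1A-204 holds 91.1% of RAB1A in the wild-type library, 41.6% in the Ala library and 40.5% in the GST library.

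The Ala and GST libraries were close for most members. For Ala over GST, 3 members were higher (6.38%, against 9.01% of all genes), 2 were lower (4.26%, against 5.13%) and 42 passed in neither direction. The median log2 ratio was -0.21, against 0.04 for all genes. The higher members were RAB24 (log2 ratio 1.22, 95% interval 1.03 to 1.41), RAB40C (1.11, 0.93 to 1.30) and RAB43 (1.03, 0.68 to 1.40). RAB43 had 35 counts in the wild-type, 190 in the Ala and 102 in the GST library. All 3 of these had their lowest scaled level in the wild-type library. RAB43 shares 97.1% of its 31-base stretches with other genes, the most (94.3%) with the readthrough gene ISY1-RAB43. The lower members were RAB27B (log2 ratio -2.26, 95% interval -4.85 to -0.67) and RAB33B, with 442 counts in the wild-type, 85 in the Ala and 192 in the GST library (-1.03, -1.42 to -0.66). When libraries were scaled to total counts, RAB24 was still past the threshold as higher and RAB40C and RAB43 were not, so the calls of RAB40C and RAB43 rest on the scaling.

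Genes that run the RAB cycle were taken as lists and described by counts, to be read against the 25.5% of all genes that were higher and the 34.2% that were lower. Those named are at most the 3 highest and 3 lowest of a list by the interval bound nearest to 0, an order that can differ from the order of the ratios. Of 9 measured genes for GDI function and prenylation, 3 were higher and 3 were lower for wild type over GST (33.3% each). The geranylgeranyl transferase divided between its subunits: RABGGTB, the beta subunit, had 1792 counts in the wild-type, 320 in the Ala and 391 in the GST library (log2 ratio 2.11), and RABGGTA, the alpha subunit, had 39, 252 and 152 (-2.03). Both escort proteins, CHM and CHML, were higher (1.72 and 1.01). RABAC1, which helps to release RABs from GDI, had 138 counts in the wild-type, 3268 in the Ala and 1722 in the GST library (-3.72). YIPF1, a Golgi membrane protein of the Yip family, was lower as well (-3.00).

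Of 34 measured GEF genes, 9 were higher (26.5%) and 14 were lower (41.2%), with a median of 0.01. The highest were CCZ1 and CCZ1B, near-identical copies of a subunit of the RAB7 exchange factor between which reads may be split (log2 ratios 2.67 and 2.08), and SBF2 (1.6). The lowest were TRAPPC1, a core subunit of the TRAPP complex that activates RAB1, with 645 counts in the wild-type, 9099 in the Ala and 7546 in the GST library (-3.63), RIN1, an exchange factor for RAB5 (-3.66), and TRAPPC2L (-2.98). Of 32 measured GAP genes, 11 were higher (34.4%) and 10 were lower (31.2%), with a median of 0.32. TBC1D12 (2.67), RAB3GAP1 (2.12) and RABGAP1 (1.58) were the highest, and SGSM2 (-4.20), TBC1D22A (-3.78) and SGSM3 (-3.44) the lowest by that ranking. Of 36 measured effector genes, 13 were higher (36.1%) and 8 were lower (22.2%), with a median of 0.44. EHBP1, an effector of RAB8 and RAB10, had 281 counts in the wild-type, 5 in the Ala and 1 in the GST library, a log2 ratio of 7.47 with a counting interval of 5.56 to 13.36. APPL2 of early endosomes (2.67) and OCRL (1.95) were next by interval bound, while MICAL1 (-4.49), RAB11FIP5, an effector of RAB11 (-3.98), and MICALL1 (-3.83) were the lowest.

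The 13 members under the minimum were RAB3C, RAB6C, RAB17, RAB19, RAB20, RAB25, RAB33A, RAB36, RAB37, RAB39A, RAB40A, RAB41 and RAB42. RAB19 and RAB25 had 0 counts in all 3 libraries. RAB20 had 0 counts in the wild-type, 20 in the Ala and 5 in the GST library, and RAB36 had 2, 15 and 7. The other 9 had at most 8 counts in any library, and no difference was readable at this depth. RAB6A shares 35.1% of its 31-base stretches with RAB6C, so the 7, 3 and 4 counts of RAB6C in the wild-type, Ala and GST libraries may include reads of RAB6A. In all, 24 of the 47 measured members shared under 5% of their 31-base stretches with another gene and 9 shared 30% or more. RAB23, with 26, 13 and 18 counts in the wild-type, Ala and GST libraries, shares 58.5% with its opposite-strand neighbour BAG2, which had 3307, 530 and 1445. Their summed log2 ratio of wild type over GST was 1.11, past the threshold that RAB23 alone (0.44) did not reach, so its value is uncertain.

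Each library held between 19137867 and 19845386 estimated counts. Of 16 urothelial and epithelial markers, 7 reached the minimum: KRT7, KRT8, KRT18, EPCAM, FOXA1, PPARG and UPK1A. CDH1, GATA3, TP63, UPK1B and UPK2 were under it, and KRT5, KRT19, KRT20 and UPK3A had 0 counts in each library. Of 6 mesenchymal markers, VIM, FN1, ZEB1 and CDH2 reached the minimum, and SPARC and TWIST1 did not. VIM had 2581 counts in the wild-type, 29118 in the Ala and 41484 in the GST library. Summed leukocyte markers were at a CPM of 0.401, 1.23 and 0.742 in the wild-type, Ala and GST libraries, and erythroid markers at 0.401, 0.175 and 0.159. Summed hepatocyte markers were at 0.451, 4.62 and 4.03 in the same order, nearly all from SERPINA1, with albumin at 0 in each. Since each library is RNA recovered with a protein, the amount of an mRNA in the lysate and its recovery cannot be told apart, and no input library was analysed here.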

How the data were processed

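RNA pulled down from J82 lysate with 3 proteins was sequenced on a BGISEQ-500, 1 library for each. The deposited tables hold, per the file headers, an estimated count and a TPM value for each of 196354 transcripts, with transcript and effective lengths. The submitters' processing notes name kallisto, DESeq2 and hg19. Versions, the annotation used for counting and what DESeq2 was used for were not given in the sources.

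Unversioned Ensembl transcript identifiers were matched to GENCODE 29 (GRCh38) for 181854 transcripts (92.62%). The counts left out were 3.79% in the wild-type, 4.20% in the Ala and 3.92% in the GST library. Estimated counts were summed per gene and rounded, genes with a mean of at least 10 were kept, and libraries were scaled by TMM (edgeR 4.0.16 in R 4.3.3). Log2 ratios used a prior count of 0.5. Intervals are exact Clopper-Pearson 95% intervals of the split of 2 counts, and for pairs of genes Wald intervals of the log odds ratio with 0.5 added to each cell. They cover counting error only, and no test across libraries was possible with 1 library per group. The steps were tested on simulated data. Analyses were run in Python 3.11.15 with SciPy 1.17.1 and Biopython 1.88, which aligned the closest pair of coding transcripts for identity. Features are from the transcript with the highest mean TPM.

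Genes were named by a rule: the 8 members highest and the 8 lowest for wild type over GST by the interval bound nearest to 0, all measured members of families with at least 2, members called for Ala over GST, and at most 3 at each end of each regulator list. Others, such as RAB7A, RAB30, RAB15, RAB35, RAB23 and RAB34-217, were named to account for their group after their values were seen. Members, lists and families were chosen with earlier results of these data known. Alternatives were other scalings (DESeq2 1.42.0 size factors and total counts), the deposited TPM with a pseudocount of 0.5, other minimum counts, transcript subsets, a fit on GC content and length, a 1.5-fold threshold and other definitions of the site.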

Additional observations from a re-analysis of the deposited data

How the results depend on the processing

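No paired analysis was possible because each group has 1 library, and for the same reason no replicate could be left out. For wild type over GST all 32 calls, and for wild type over Ala all 36, were kept under 3 other scalings of the libraries, against 3 of 5 for Ala over GST. Under 7 alternatives together (scalings, TPM, transcript subsets and the GC and length fit) 13 of 32, 15 of 36 and 1 of 5 were kept. Scaling moved the median log2 ratio of all genes by up to 0.11 for wild type over GST, 0.32 for wild type over Ala and -0.21 for Ala over GST.

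With the fit on GC content and length removed, 7 members were lower for wild type over GST, 13 higher and 8 lower for wild type over Ala, and 0 higher and 1 lower for Ala over GST, where 2 families were apart. The fit changed the sign of 13 members for wild type over GST, 9 for wild type over Ala and 14 for Ala over GST. Those called before or after it were RAB43 (0.094), RAB33B (-0.081), RAB24 (1.33), RAB40C (0.12) and RAB27B (-0.15) for wild type over GST, and RAB6B (1.83), RAB24 (0.69), RAB18 (-0.68) and RAB8B (-0.54) for wild type over Ala. The difference in medians between members with and without UAUUUAU became 0.44 for wild type over GST, 0.76 for wild type over Ala and -0.058 for Ala over GST. It was 3.21, 4.0 and -0.51 with UAUUUA in place of the heptamer, and for wild type over Ala 2.54 with TPM and 3.23 with any annotated 3′ UTR.

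With protein-coding transcripts only, the RAB28 log2 ratio was -6.03 for wild type over GST and -6.58 for wild type over Ala, with the wild-type library at 0 counts, and RAB40C was 5.11 for wild type over GST with GST at 0. These values depend on the prior count. RAB4B became -1.38 for Ala over GST. With transcripts of equal length only, RAB4B became 3.39 for wild type over GST. For Ala over GST, total counts and totals without the most abundant genes gave 1 higher member each and medians of -0.35 and -0.43. A 1.5-fold threshold gave 7 higher and 4 lower, TPM gave 0 lower, and a minimum mean of 100 counts gave 1 lower. The cause of these changes was not tested. Members with few counts, such as RAB4B, RAB27B and RAB9B, are limited by depth.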
